A study of Mus musculus with 3 samples.

Results

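Mural cells are the pericytes and smooth muscle cells that wrap the endothelium of blood vessels. Those described here sat in tumours of 4T1, a line of mouse mammary carcinoma cells, and were chosen by their RNA levels, cell by cell. A barcode was taken when Rgs5, Notch3, Myh11 and Des together made up at least 0.1% of its UMIs (unique molecular identifiers, each standing for 1 captured RNA). It also had to hold 0 UMIs of Pdgfra, a fibroblast receptor, and 0 of Cdh5, an endothelial cadherin, and under 0.1% each of the tumour cell genes Wfdc2, Krt8 and Krt18 and of the macrophage genes C1qa, C1qb and C1qc. The rule found 90 mural cells among the 16353 barcodes kept, which had 200 or more genes and no more than 20% of UMIs from mitochondrial genes. Of these, 62 came from the library labelled sgCPT1A and 28 from the library labelled sgVC. Their summed profile was set against 837 Pdgfra-positive fibroblasts of the same tumours, 486 from sgCPT1A and 351 from sgVC, the other collagen-making stromal cells. These had a UMI of Pdgfra, Dcn and 3 collagen genes at 0.1% or more, and the mural genes of the rule under 0.1%.

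The sgCPT1A tumours grew from a 4T1 line that is named for a guide against Cpt1a and labelled as a CPT1A knockdown. Cpt1a encodes the carnitine palmitoyltransferase that controls the entry of long fatty acids into mitochondria. The sgVC tumours grew from the line named 4T1-sgVC, labelled WT. In both groups the hosts were female mice of 8 to 10 weeks, kept for 8 days as tumour bearers, and whole tumours were minced, digested with papain and DNase and strained, with no sort described. The guide is given for the tumour line, and the labels give the hosts, whose cells the mural cells would be, no allele of their own. The sources used here do not give the number of animals, any pooling of tumours or the mouse strain. The series asks how the cells that make up the tumour differ after Cpt1a depletion. A further sgCPT1A sample of the series has no file of its own here. With 1 library in each group no test was possible, and intervals are exact 95% intervals that cover counting error only and not the spread between cells, tumours or mice.

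As background, pericytes sit within the basement membrane of capillaries, keep endothelial tubes stable and answer to PDGF from endothelial cells through Pdgfrb, while smooth muscle cells ring arterioles and venules and set their width by contraction. Notch3, switched on by Jag1 on the endothelium, holds both in their mural state, and Rgs5, a brake on G-protein signalling, marks them in many vessels. In tumours, mural cells are often loosely attached and vary in their content of contractile proteins.

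The sgCPT1A library held 7198 barcodes and 35557125 UMIs, and the sgVC library 9890 barcodes and 155948212 UMIs. The median depth of mural cells was 14471.5 UMIs (500 to 98692) and 4001 genes in sgCPT1A, and 8183 UMIs (817 to 29471) and 2794 genes in sgVC. Summed, they gave 1064764 UMIs in sgCPT1A and 292462 UMIs in sgVC. Their median mitochondrial share was 4.38% in sgCPT1A and 1.93% in sgVC, and levels of the noncoding RNAs Rn18s-rs5 (24101 CPM in sgCPT1A and 10784 CPM in sgVC mural cells) and Malat1 (14390.0 CPM in sgCPT1A and 6681 CPM in sgVC) also differed, with their part in the results below not tested. Levels are in CPM, the UMIs of a gene per 1000000 summed UMIs of its cell group. The libraries shared 18 barcodes, and 0 of the mural barcodes were among those. In barcodes with tumour cell genes, Cpt1a itself stood at 30.4 CPM (19.5 to 45.3) in the 40 of sgCPT1A and at 16.7 CPM (16.0 to 17.4) in the 4430 of sgVC, which is not lower in the library labelled sgCPT1A. The site of the guide and the method of the knockdown are not given in the sources used here. Why Cpt1a was not lower was not tested, and the labels were kept as they stand, without a check. In mural cells Cpt1a had 36.6 CPM in sgCPT1A and 30.8 CPM in sgVC.

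The 4 genes of the rule and the remaining mural markers were present at high levels in both libraries. Rgs5 (chromosome 1, 169655501 to 169695813, + strand, GRCm38) had 5879 CPM in sgCPT1A mural cells and 5529 CPM in sgVC mural cells, against 1.14 CPM in sgCPT1A fibroblasts and 0.906 CPM in sgVC fibroblasts. In single cells the lowest, median and highest levels of Rgs5 were 0, 5706 and 20724 CPM in sgCPT1A and 898, 5669.9 and 20872 CPM in sgVC. The mural cells carried 81.9% of all Rgs5 UMIs of both libraries. Endothelial-like barcodes, 9 in sgCPT1A and 14 in sgVC, also held Rgs5, at 3126 CPM over both. Notch3 (chromosome 17, 32120820 to 32166852, - strand) had 606 CPM in sgCPT1A and 438 CPM in sgVC mural cells. Myh11, the heavy chain of smooth muscle myosin, had 409 CPM in sgCPT1A and 369 CPM in sgVC, and Des, the intermediate filament desmin, had 1038 CPM in sgCPT1A and 1118 CPM in sgVC. The cells of both libraries overlapped in level for each of the 4, and since these genes chose the cells, their levels are a description. Cspg4, the NG2 proteoglycan of pericytes, was not used by the rule and had 106 CPM in sgCPT1A and 92.3 CPM in sgVC. Pdgfrb, the PDGF receptor of mural cells, had 873 CPM in sgCPT1A mural cells and 793 CPM in sgVC mural cells, against 203 CPM in sgCPT1A fibroblasts and 216 CPM in sgVC fibroblasts. After each cell was thinned to 2000 UMIs, which leaves 56 mural cells of sgCPT1A and 25 of sgVC, with 6 sgCPT1A and 3 sgVC cells shallower than that, Rgs5 was seen in 96.4% of sgCPT1A and 100% of sgVC mural cells, in 0% of sgCPT1A and 0.578% of sgVC fibroblasts and in 0.540% of sgCPT1A and 0% of sgVC neutrophil-like cells. Unthinned, it had a UMI in 59 of 62 sgCPT1A and 28 of 28 sgVC cells. Median depths were 25844 UMIs in sgCPT1A and 15055 UMIs in sgVC fibroblasts, and 2789 UMIs in sgCPT1A and 1611 UMIs in sgVC neutrophil-like cells.

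**Figure D1:**
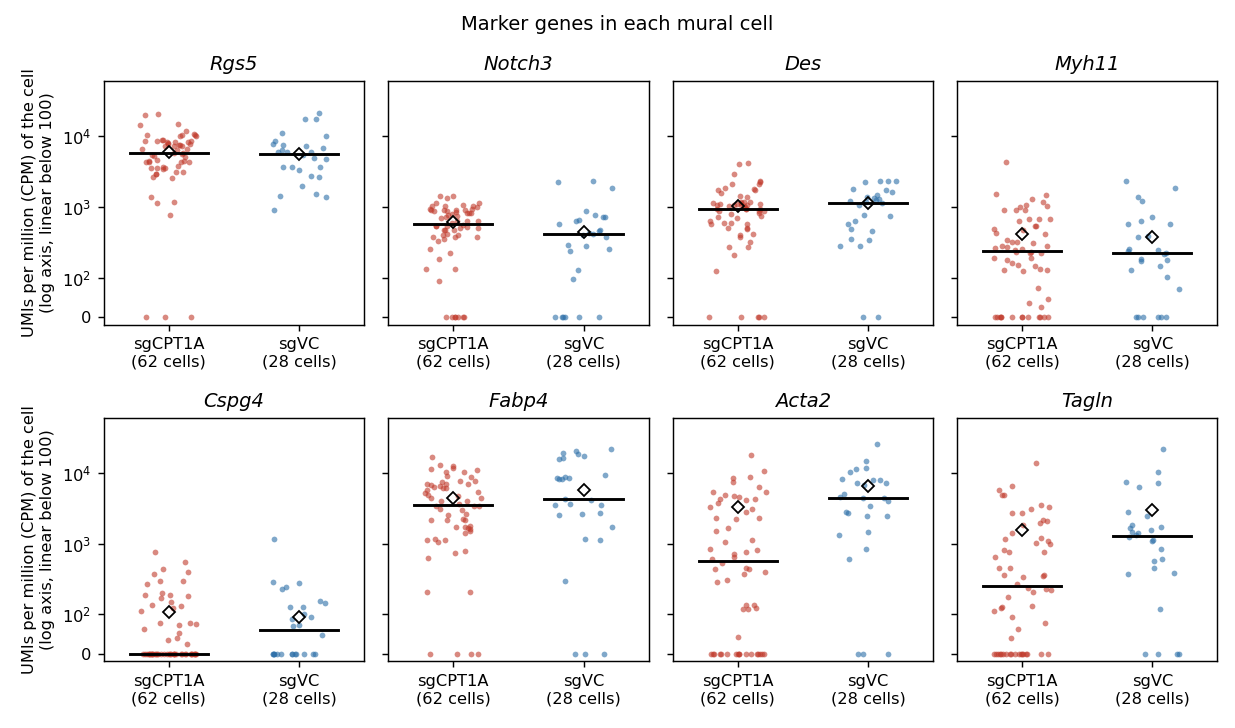
Level of 8 genes in each mural cell, in CPM of the cell on an axis that is logarithmic above 100, for sgCPT1A (62 cells, red) and sgVC (28 cells, blue). Bars are medians over cells and diamonds the CPM of the summed UMIs. The median of Rgs5 is 5706 CPM in sgCPT1A and 5669.9 CPM in sgVC, while the median of Acta2 is 573 CPM in sgCPT1A and 4403 CPM in sgVC.

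Some members stood near the limit or carried genes of another cell type. Inside the limit, 5 sgCPT1A and 2 sgVC cells had rule genes at 0.1 to 0.2% of UMIs, and 3 of the sgCPT1A cells, with 861 to 937 UMIs, passed on 1 UMI. Outside it, at 0.05 to 0.1%, lay 7 sgCPT1A and 5 sgVC barcodes, each with 1 UMI of the rule genes. The 8 neutrophil markers summed to at least 0.5% of UMIs in 6 sgCPT1A cells and 1 sgVC cell, and Ptprc, carried by all leukocytes, had a UMI in 8 sgCPT1A and 3 sgVC cells. The neutrophil list summed to 853 CPM in sgCPT1A and 574 CPM in sgVC mural cells, with 0 of its 8 genes at 0 in sgCPT1A and 2 in sgVC. A single sgCPT1A cell of 11126 UMIs held the myoepithelial keratins Krt5 or Krt14 and 0 UMIs of Rgs5, and it held most of the 94.9 CPM of the myoepithelial list in sgCPT1A, against 0 in sgVC, where all 8 genes were at 0. The endothelial list summed to 103 CPM in sgCPT1A and 129.9 CPM in sgVC mural cells, against 25.8 CPM in sgCPT1A and 23.2 CPM in sgVC fibroblasts. Its 1 gene with enough UMIs to set against fibroblasts had a log2 ratio of 2.25. Of its 10 genes Cldn5, Tie1, Vwf and, by the rule, Cdh5 were at 0 in both libraries. The 7 satellite cell genes were all at 0 in both, and 11 genes of skeletal muscle fibres summed to 13.1 CPM in sgCPT1A and 17.1 CPM in sgVC, with 5 of them at 0 in sgCPT1A and 9 in sgVC. The macrophage list differed, at 403 CPM in sgCPT1A and 30.8 CPM in sgVC, with 3 of its 10 genes at 0 in sgCPT1A and 7 in sgVC, C1qa and C1qb among them in both. Most of this difference came from 1 gene, Apoe, the only member with at least 30 UMIs. Apoe had 401 UMIs in mural cells, 27.4% of them in 1 cell, and a log2 ratio of 4.44 for sgCPT1A over sgVC. The T and NK cell list reached 3969 CPM in its highest sgVC mural cell and 498 CPM in sgCPT1A. A sgVC cell of 3527 UMIs held 5 UMIs of Rgs5, 5 of Ptprc and 0 of Notch3, Myh11, Des, Acta2 and Tagln. For some lists below, counts are also given without some of these cells. Cells with genes of another type are there those with Krt5 or Krt14, neutrophil markers at 0.5% or more, or under 2 UMIs of the rule genes. The sgVC cell of 3527 UMIs is not among them. The other lists are given with all cells only, and some of their counts move as well.

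Against fibroblasts, with both libraries summed, 871 of 6009 genes were at least 2-fold higher in mural cells, or 14.5%, and 622 were at least 2-fold lower, or 10.4%. The genes counted had at least 50 UMIs over both cell groups and at least 25 CPM in the higher one. Of the 871, 617 were at least 2-fold higher in each library taken alone, where 1010 of 6016 genes (16.8%) were higher and 636 (10.6%) lower in sgCPT1A, and 792 of 5809 (13.6%) higher and 775 (13.3%) lower in sgVC. The median log2 ratio over all 6009 genes was 0.32, so a gene at that ratio lies in the middle of all genes and a list is best read against it. With the scaling set by the median ratio in place of CPM, 548 genes were higher and 837 lower. Because expression chose the cells, these counts describe the cells and test nothing.

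The genes with the highest ratios that the rule had not used were Higd1b, Kcnk3, Gja4, Ppp1r14a, Esam, Tspan15, Cd36, Mcam, Serpina1b, Trarg1, Ano1, Adgrf5, Tinagl1, Cspg4 and Ramp1, each with at least 100 CPM in mural cells. Higd1b, a mitochondrial protein gene used as a pericyte marker, had 224 CPM in sgCPT1A mural cells and 297 CPM in sgVC mural cells, against 0.0817 CPM in sgCPT1A fibroblasts and 0 CPM in sgVC fibroblasts. All fibroblasts together held 1 UMI of it, and its log2 ratio was 12.05 (9.57 to 17.36). Kcnk3, a potassium channel that holds the resting potential, also had 1 fibroblast UMI, at 104 CPM in mural cells and a log2 ratio of 10.85 (8.35 to 16.16). Gja4, a connexin of vessel walls, had 321 CPM in sgCPT1A mural cells and 325 CPM in sgVC mural cells, against 0.327 CPM in sgCPT1A fibroblasts and 0 CPM in sgVC fibroblasts, and a log2 ratio of 10.48 (9.12 to 12.36). Gja4 had a UMI in 50 of 62 sgCPT1A and 20 of 28 sgVC cells, Higd1b in 41 of 62 sgCPT1A and 19 of 28 sgVC cells, and Kcnk3 in 33 of 62 sgCPT1A and 13 of 28 sgVC cells. All 3 were near absent from the fibroblasts of either library. Adhesion molecules shared with endothelium were in this group too. Esam had 262 CPM in mural cells and 0.338 CPM in fibroblasts, Mcam, also called CD146, had 490.0 CPM in mural cells and 1.07 CPM in fibroblasts. Endothelial-like barcodes held Esam at 823 CPM and Mcam at 624 CPM. Serpina1b had 1462 CPM in mural cells and 4.78 CPM in fibroblasts, but it has near-identical copies in the mouse genome, so its share of the reads is uncertain.

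The pericyte list had 21 of 28 measured genes at least 2-fold higher and 1 at least 2-fold lower in mural cells, with a median log2 ratio of 3.82, Rgs5 and Notch3 being left out. It named 37 genes, of which 28 could be counted here. Kcnj8 and Abcc9, which form the ATP-sensitive potassium channel of mural cells, had 328 and 514 CPM in mural cells and 11.4 and 12.2 CPM in fibroblasts. Cox4i2 had 241 CPM in mural cells and 3.60 CPM in fibroblasts, a log2 ratio of 6.06 (5.67 to 6.47). It encodes an isoform of a respiratory chain subunit known from lung. Rgs4 had 246 CPM in mural cells and 3.60 CPM in fibroblasts, and Vtn, the vitronectin gene, had 134 CPM in mural cells and 5.52 CPM in fibroblasts. The members within 2-fold were shared with fibroblasts, among them Steap4 (log2 ratio 0.020, interval -0.14 to 0.17), Thy1 (log2 ratio 0.53, interval 0.42 to 0.63) and Postn (log2 ratio -0.28, interval -0.35 to -0.22). The 1 lower member was Anpep, an aminopeptidase, with 18.4 CPM in mural cells and 60.4 CPM in fibroblasts.

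**Figure D2:**
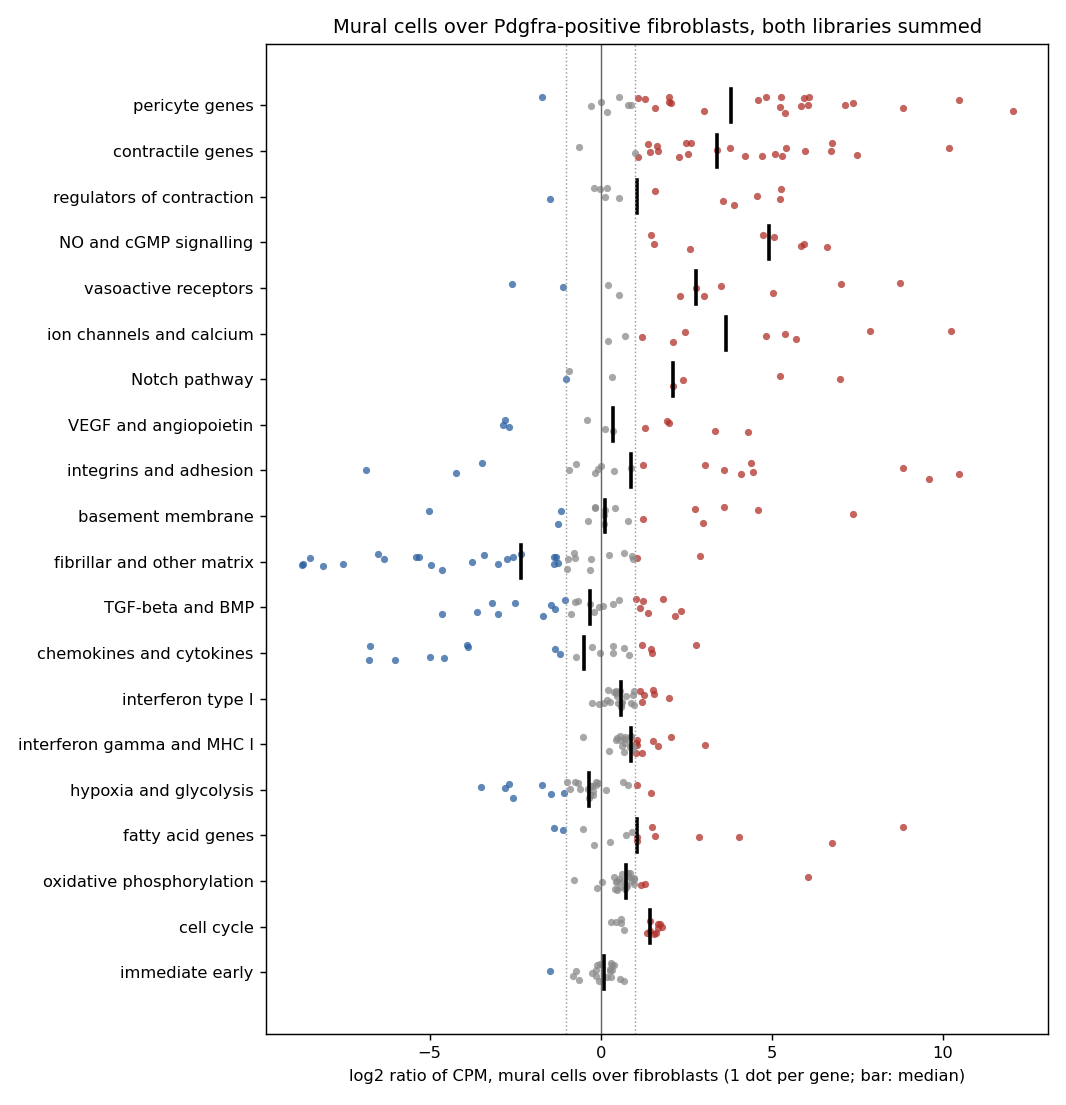
Log2 ratio of CPM, mural cells over Pdgfra-positive fibroblasts, for each gene of 20 lists (1 dot a gene, both libraries summed, rule genes left out); bars are list medians and dotted lines mark 2-fold. The medians of the pericyte (3.82), contractile (3.41) and NO and cGMP (4.92) lists lie to the right, that of the matrix list (-2.34) to the left, and the median of all 6009 genes is 0.32.

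The contractile list had 21 of 23 measured genes at least 2-fold higher and 0 at least 2-fold lower in mural cells, with a median log2 ratio of 3.41. Acta2, the smooth muscle actin gene (chromosome 19, 34241090 to 34255590, - strand), had 3291 CPM in sgCPT1A mural cells and 6551 CPM in sgVC mural cells, against 66.6 CPM in sgCPT1A fibroblasts and 229.7 CPM in sgVC fibroblasts, a pooled log2 ratio of 5.09 (5.02 to 5.16). Tagln, an actin-binding protein, had 1552 CPM in sgCPT1A mural cells and 2995 CPM in sgVC mural cells, against 72.2 CPM in sgCPT1A fibroblasts and 164 CPM in sgVC fibroblasts. For both, every library's mural level lay above both fibroblast levels. Mylk, the kinase that starts contraction by phosphorylating myosin light chains, had 839.9 CPM in mural cells and 7.88 CPM in fibroblasts, and Myl9, the light chain it acts on, had 856 CPM in mural cells and 19.9 CPM in fibroblasts. Ppp1r14a, an inhibitor of the phosphatase that reverses this step, had 392 CPM in mural cells and 0.338 CPM in fibroblasts. Genes for tropomyosin, caldesmon and filamin were also higher, by less: Tpm2 had a log2 ratio of 3.41 (3.30 to 3.51), Cald1 of 1.69 (1.62 to 1.75) and Flna of 1.46 (1.33 to 1.59). The 2 members within 2-fold were Myl6, at 1.0, and Smtn, at -0.62. Of further smooth muscle genes, Cnn1, a calponin, had 21.4 CPM and Actg2, an actin, 73.7 CPM in mural cells, while Myh11, used by the rule, had a UMI in 49 of 62 sgCPT1A and 22 of 28 sgVC cells.

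Contractile genes are known targets of serum response factor, which binds the CArG box, read here as 6 A or T bases between CC and GG on either strand. In windows of 250 bases before to 50 after a RefSeq gene start (GRCm38.p6), 535 of 32851 windows of all genes held one (1.63%). Of the 32 contractile genes 25 matched an entry, with 31 windows, and 3 windows held a box (9.68%), those of Myl6, Myl9 and Vcl, the vinculin gene. All 3 had higher CPM in mural cells than in fibroblasts, at log2 ratios of 1.0 (0.94 to 1.05), 5.43 (5.26 to 5.61) and 2.55 (2.35 to 2.74). The windows are printed to show where the box lies, which is in capitals and starts 50, 161 and 227 bases before the start of Myl6 (chr10:128492960-128493259, - strand), Myl9 (chr2:156775214-156775513, + strand) and Vcl (chr14:20929148-20929447, + strand).
Myl6: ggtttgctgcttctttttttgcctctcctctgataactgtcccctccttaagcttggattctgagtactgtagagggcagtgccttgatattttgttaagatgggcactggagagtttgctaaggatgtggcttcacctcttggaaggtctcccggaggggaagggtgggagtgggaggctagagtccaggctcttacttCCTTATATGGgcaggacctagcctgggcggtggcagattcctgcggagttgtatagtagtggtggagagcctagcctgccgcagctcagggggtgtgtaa
Myl9: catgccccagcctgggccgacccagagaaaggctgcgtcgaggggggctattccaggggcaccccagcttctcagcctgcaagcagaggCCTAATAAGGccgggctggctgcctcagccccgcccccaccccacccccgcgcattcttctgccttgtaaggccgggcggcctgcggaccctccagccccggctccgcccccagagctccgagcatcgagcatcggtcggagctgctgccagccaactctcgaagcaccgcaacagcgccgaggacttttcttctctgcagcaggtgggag
Vcl: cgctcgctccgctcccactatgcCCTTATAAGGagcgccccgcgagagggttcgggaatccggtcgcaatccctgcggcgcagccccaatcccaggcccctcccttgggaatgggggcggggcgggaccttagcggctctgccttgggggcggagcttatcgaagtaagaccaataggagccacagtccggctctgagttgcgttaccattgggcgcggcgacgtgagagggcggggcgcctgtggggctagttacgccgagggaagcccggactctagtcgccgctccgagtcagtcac
A match is a description of letters and no evidence of binding. No match says only that these letters are not in the window. The letters TGGGAA, the core of the RBPJ motif through which Notch acts, were found on either strand in 8397 of 32851 windows (25.6%), in 5 of 22 windows of 17 matched Notch pathway genes (22.7%) and in 10 of 31 contractile windows (32.3%), Acta2 among them. The 22 Notch windows held 0 CArG boxes.

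Regulators of the contractile state had 6 of 12 measured genes at least 2-fold higher and 1 at least 2-fold lower in mural cells, with a median log2 ratio of 1.05. Myocd, the myocardin coactivator of serum response factor, was sparse, at 27.2 CPM in sgCPT1A and 3.42 CPM in sgVC mural cells. Tbx2 had 118 CPM in mural cells and 4.95 CPM in fibroblasts, Mef2c had 173 CPM in mural cells and 11.6 CPM in fibroblasts and Nr2f2 had 484 CPM in mural cells and 40.2 CPM in fibroblasts. The last is a nuclear receptor known for venous identity. Foxs1, a forkhead gene of pericytes, had 70.0 CPM in mural cells and 1.80 CPM in fibroblasts. The lower one was Klf4, a factor known to oppose smooth muscle genes, with 133 CPM in mural cells and 371 CPM in fibroblasts.

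Of the Notch pathway, 7 of 22 genes could be counted beside Notch3, and 4 were at least 2-fold higher, 1 at least 2-fold lower. The highest ratios were those of targets. Nrarp, a feedback inhibitor, had 70.4 CPM in sgCPT1A mural cells and 78.6 CPM in sgVC mural cells, against 0.653 CPM in sgCPT1A fibroblasts and 0.362 CPM in sgVC fibroblasts, and Heyl, a transcription factor induced by Notch3, had 60.1 CPM in sgCPT1A mural cells and 20.5 CPM in sgVC mural cells, against 0.980 CPM in sgCPT1A fibroblasts and 2.17 CPM in sgVC fibroblasts. The ligand Jag1 had 102 CPM in mural cells and 23.7 CPM in fibroblasts, and the receptor Notch1 69.3 CPM in mural cells and 12.9 CPM in fibroblasts. Hes1 (log2 ratio 0.32, interval 0.17 to 0.47) and the effector Rbpj (log2 ratio -0.94, interval -1.38 to -0.53) were within 2-fold, and Notch2 was lower, at a log2 ratio of -1.01 (-1.65 to -0.44). The ligand Dll4, typical of tip endothelium, had 0 UMIs in mural cells, which allows up to 2.21 CPM.

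Receptors and channels for vasoactive signals were mostly higher. The NO and cGMP list had 8 of 8 measured genes at least 2-fold higher and 0 at least 2-fold lower in mural cells, with a median log2 ratio of 4.92. Gucy1a1 and Gucy1b1, the subunits of the NO receptor guanylate cyclase, had 276 and 189 CPM in mural cells and 4.45 and 3.26 CPM in fibroblasts. Irag1, through which cGMP kinase lowers calcium release, had 66.3 CPM in mural cells and 0.675 CPM in fibroblasts, and Pde3a, which breaks cyclic nucleotides down, 178 CPM in mural cells and 6.58 CPM in fibroblasts. Among receptors, 7 of 11 were at least 2-fold higher and 2 at least 2-fold lower. Ednrb and Ednra, the endothelin receptors, had 195 and 291 CPM in mural cells against 0.450 and 35.6 CPM in fibroblasts, so that Ednrb was near absent from fibroblasts and Ednra was not. Ramp1, a subunit of the CGRP receptor, had 294 CPM in mural cells and 2.25 CPM in fibroblasts, Adra2a, an adrenergic receptor, 181 CPM in mural cells and 5.52 CPM in fibroblasts, and Agtr1a, the angiotensin receptor, 114 CPM in mural cells and 10.0 CPM in fibroblasts. The thrombin receptor F2r was lower, at 7.37 CPM in mural cells and 44.1 CPM in fibroblasts. Of channels and calcium genes, 8 of 10 were higher and 0 lower. Trpc6, a stretch-linked cation channel, had 68.5 CPM in mural cells and 1 UMI in all fibroblasts, a log2 ratio of 10.25 (7.74 to 15.57), and Ano1, a calcium-gated chloride channel, had 119 CPM in mural cells and 0.507 CPM in fibroblasts.

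Signals between mural and endothelial cells had no single direction. Pdgfa, a PDGF ligand, had 547 CPM in mural cells and 34.1 CPM in fibroblasts. In the VEGF and angiopoietin list 5 of 11 genes were at least 2-fold higher and 3 lower. Angpt2, which loosens vessels, had 119 CPM in mural cells and 6.08 CPM in fibroblasts, and Angpt1, which steadies them, 48.6 CPM in mural cells and 12.2 CPM in fibroblasts. Flt1, a VEGF receptor and decoy, had 288 CPM in mural cells and 28.3 CPM in fibroblasts, with 465 CPM in endothelial-like barcodes. The ligand Vegfa was lower, with 27.3 CPM in mural cells and 189 CPM in fibroblasts (log2 ratio -2.79, interval -3.30 to -2.33). The TGF-beta and BMP list had 7 of 25 measured genes at least 2-fold higher and 9 at least 2-fold lower in mural cells, with a median log2 ratio of -0.30: the coreceptor Eng had 89.9 CPM in mural cells and 19.8 CPM in fibroblasts, while the receptor Tgfbr2 had 64.1 CPM in mural cells and 511 CPM in fibroblasts.

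In contact and matrix genes mural cells and fibroblasts parted by type of matrix. The adhesion list had 9 of 19 measured genes at least 2-fold higher and 3 at least 2-fold lower in mural cells, with a median log2 ratio of 0.90. Itga1 and Itga7, integrin chains for basement membrane collagen and laminin, had 722 and 81.0 CPM in mural cells against 42.3 and 3.83 CPM in fibroblasts, and Cdh2, the N-cadherin of mural junctions, had 111 CPM in mural cells and 13.5 CPM in fibroblasts. The fibroblast connexin Gja1 had 1.47 CPM in mural cells and 169.8 CPM in fibroblasts, the reverse of Gja4. Of the basement membrane list, 6 of 17 were higher, 3 lower and 8 within 2-fold. Col4a1 and Col4a2, the collagen chains that form its net, had 2263 and 967 CPM in mural cells against 282 and 144 CPM in fibroblasts, and Col18a1 746 CPM in mural cells and 61.5 CPM in fibroblasts. Laminin genes did not share this: Lama4 was at a log2 ratio of -0.37 (-0.59 to -0.15), Lamb1 at a log2 ratio of -0.16 (-0.34 to 0.011) and Lamc1 at a log2 ratio of 0.093 (-0.095 to 0.28). The list of fibrillar and other matrix had 2 of 33 measured genes at least 2-fold higher and 21 at least 2-fold lower in mural cells, with a median log2 ratio of -2.34. Elastic fibre and crosslinking genes were among the lowest: Lox had 2.95 CPM in mural cells and 814 CPM in fibroblasts, Eln 37.6 CPM in mural cells and 190.4 CPM in fibroblasts, and Mfap5 0 UMIs in mural cells and 941 CPM in fibroblasts, at least 426-fold lower with a floor of 3 counts over both libraries. The collagens Col1a1 and Col3a1, which helped define the fibroblasts, still had 3629 and 2972 CPM in mural cells, against 22913 and 24857 CPM in fibroblasts. The exceptions on the high side were Timp3, an inhibitor of matrix proteases bound to matrix, with 1461 CPM in mural cells and 195 CPM in fibroblasts, and Col6a3, with 1857 CPM in mural cells and 879.8 CPM in fibroblasts.

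The genes with the lowest ratios were Lbp, Pi16, Igfbp6, Crabp1, Saa3, Chl1, Mfap5, Mmp3, Mfap4 and Efemp1. Lbp, the binding protein of bacterial lipopolysaccharide, had 1 UMI in mural cells and 1320.1 CPM in fibroblasts, a log2 ratio of -10.81 (-16.11 to -8.33). Saa3, an acute phase protein that was at 32738 CPM in fibroblasts, had 66.3 CPM in mural cells (log2 ratio -8.95, interval -9.26 to -8.65), and Mmp3, a matrix protease, 4.42 CPM in mural cells and 1841 CPM in fibroblasts. Pi16, a gene of adventitial fibroblasts, also had 1 mural UMI and 479 CPM in fibroblasts. The chemokine and cytokine list had 4 of 20 measured genes at least 2-fold higher and 9 at least 2-fold lower in mural cells, with a median log2 ratio of -0.48. Cxcl12, which draws CXCR4-bearing leukocytes, had 59.7 CPM in mural cells and 1890.3 CPM in fibroblasts, the neutrophil attractant Cxcl5 14 CPM in mural cells and 1505 CPM in fibroblasts, and Ccl8 8.10 CPM in mural cells and 526 CPM in fibroblasts. Cxcl1 and Cxcl2, which act on neutrophils too, were within 2-fold, at a log2 ratio of -0.72 (-0.80 to -0.63) and -0.031 (-0.10 to 0.035). On the high side stood Il34, a ligand of the macrophage growth factor receptor, with 126 CPM in mural cells and 18.1 CPM in fibroblasts, and Il6st, the common chain of interleukin receptors, with 615 CPM in mural cells and 223 CPM in fibroblasts.

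Lipid handling set mural cells apart at a few genes. The fatty acid list had 8 of 15 measured genes at least 2-fold higher and 2 at least 2-fold lower in mural cells, with a median log2 ratio of 1.05. Fabp4, a fatty acid chaperone of capillaries and fat, had 4449.8 CPM in sgCPT1A mural cells and 5676 CPM in sgVC mural cells, against 29.9 CPM in sgCPT1A fibroblasts and 73.9 CPM in sgVC fibroblasts, and 11339.8 CPM in endothelial-like barcodes. In single cells the lowest, median and highest levels of Fabp4 were 0, 3506 and 16655 CPM in sgCPT1A and 0, 4209 and 22032 CPM in sgVC. It had a UMI in 58 of 62 sgCPT1A and 25 of 28 sgVC cells, and thinned to 2000 UMIs in 91.1% of sgCPT1A and 76.0% of sgVC mural cells against 5.61% of sgCPT1A and 6.36% of sgVC fibroblasts and 1.49% of sgCPT1A and 1.92% of sgVC neutrophil-like cells. Cd36, a fatty acid transporter, had 104 CPM in mural cells and 0.225 CPM in fibroblasts, and Pparg, the nuclear receptor that drives both, 47.9 CPM in mural cells and 2.87 CPM in fibroblasts. Of beta-oxidation enzymes, Hadha was higher, at a log2 ratio of 1.58 (1.36 to 1.79), and Acadvl within 2-fold, at a log2 ratio of 0.29 (-0.10 to 0.66). Cpt1a had 35.4 CPM in mural cells and 40.7 CPM in fibroblasts. Oxidative phosphorylation genes were 3 of 27 higher and 0 lower, with a median of 0.73. The isoforms Cox4i2 and Ndufa4l2, both also on the pericyte list, made up 2 of those. Hypoxia and glycolysis genes had 2 of 27 measured genes at least 2-fold higher and 7 at least 2-fold lower in mural cells, with a median log2 ratio of -0.33. Epas1, a hypoxia factor of vessels, had 798 CPM in mural cells and 379 CPM in fibroblasts.

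Interferon and cell cycle genes were higher in part, and immediate early genes hardly differed. Type I interferon genes were 6 of 27 higher and 0 lower (median 0.60), and interferon gamma and MHC class I genes 9 of 25 higher and 0 lower (median 0.90). Irf8 led that list with 95 CPM in mural cells and 11.4 CPM in fibroblasts, and the antigen-presenting chain B2m had 3167 CPM in mural cells and 1915 CPM in fibroblasts. Cell cycle genes were 9 of 14 higher, with a median of 1.44, but single cells held much of them: 51.1% of Top2a UMIs and 47.5% of Ube2c UMIs came from 1 cell. Mki67 had a UMI in 17 of 62 sgCPT1A and 10 of 28 sgVC cells, and at 2000 UMIs in 8.93% of sgCPT1A and 16.0% of sgVC mural cells against 1.46% of sgCPT1A and 3.18% of sgVC fibroblasts and 2.30% of sgCPT1A and 3.46% of sgVC neutrophil-like cells. Immediate early genes were 0 of 20 higher and 1 lower. None of the 6 counted genes of the cGAS-STING list passed 2-fold, Sting1 being at a log2 ratio of -0.084 (-0.48 to 0.29).

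Among themselves, mural cells varied widely in contractile content. Acta2 and Tagln together made up at least 0.5% of UMIs in 15 of 62 sgCPT1A cells and 16 of 28 sgVC cells, and 2 sgCPT1A and 4 sgVC cells lay within 0.4 to 0.6%. Cells with Rgs5 at 0.5% or more numbered 35 of 62 sgCPT1A and 15 of 28 sgVC cells. Cells high in Rgs5 fell on both sides of the Acta2 limit, and no gap set contractile cells apart from the others. Over the 81 cells with at least 2000 UMIs, the genes that followed Acta2 plus Tagln most closely by Spearman's rho, of 956 with at least 200 UMIs, were Tpm2 (0.81), Tpm1 (0.71), Flna (0.70), Myl6 (0.69) and Csrp1 (0.68). These encode tropomyosins, filamin, a light chain and a cytoskeletal LIM protein, and Myl9 (0.64) and Vcl (0.60), whose promoter windows were shown, came close behind. At the other end, with sex-linked genes left aside, stood Abcc9 (-0.60), Steap4 (-0.57) and Cygb (-0.56). Abcc9 had 343 CPM in the 40 cells with the most Acta2 plus Tagln and 762 CPM in the other 41, while Timp3 had 629.6 CPM in the 40 and 2651 CPM in the 41, and Pdgfrb 754 CPM in the 40 and 1011 CPM in the 41. These correlations describe cells that share 2 libraries: the 40 cells were 39.3% of the sgCPT1A cells and 72.0% of the sgVC cells, their median depth was 16952 against 10610 UMIs, and Rn18s-rs5 ran the other way (-0.45). Within sgCPT1A alone the rho of Abcc9 was -0.73 and within sgVC -0.15, while that of Tpm2 was 0.78 within sgCPT1A and 0.72 within sgVC. The rho of Cygb was -0.64 within sgCPT1A and -0.15 within sgVC, that of Steap4 -0.58 within sgCPT1A and -0.41 within sgVC, and that of Pdgfrb -0.52 within sgCPT1A and -0.24 within sgVC. That of Timp3 was -0.47 within sgCPT1A and 0.016 within sgVC, so its opposite course was not seen in sgVC.

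**Figure D3:**
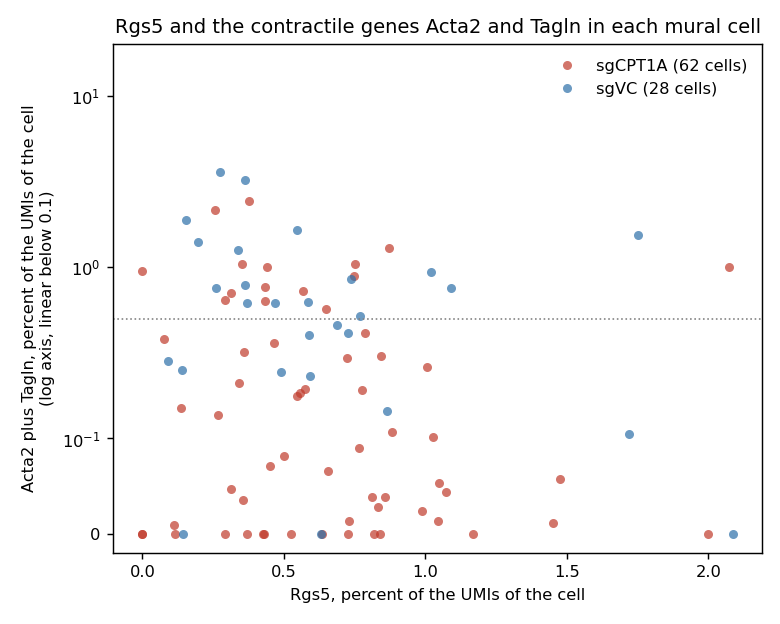
Rgs5 (x axis) against Acta2 plus Tagln (y axis, logarithmic above 0.1), each as percent of the UMIs of a mural cell, with 62 sgCPT1A cells in red and 28 sgVC cells in blue and a dotted line at 0.5%. Above the line lie 15 sgCPT1A and 16 sgVC cells, at low and high Rgs5 alike.

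Between the libraries, mural cells made up 0.919% of sgCPT1A barcodes (62 of 6743, exact Clopper-Pearson interval 0.706 to 1.18%) and 0.291% of sgVC barcodes (28 of 9610, 0.194 to 0.421%). The log2 ratio was 1.66 (0.99 to 2.36), or 3.16-fold. The total behind this share differed in kind, since 4430 sgVC barcodes carried tumour cell genes against 40 in sgCPT1A. With these left out the shares were 0.925% of 6703 in sgCPT1A and 0.541% of 5180 in sgVC, and the log2 ratio was 0.77 (0.11 to 1.47). As a share of mural cells plus fibroblasts they were 11.3% of 548 in sgCPT1A and 7.39% of 379 in sgVC, with a log2 ratio of 0.61 (-0.051 to 1.31), an interval that holds 0. With 1 library a group, a difference between tumours and one between dissociations cannot be told apart.

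Within mural cells, 547 of 5826 genes with at least 30 UMIs were at least 2-fold higher in sgCPT1A than in sgVC, or 9.39%, and 147 were at least 2-fold lower, or 2.52%. The median log2 ratio over all of them was 0.083, and over the same genes in fibroblasts -0.12. The sgCPT1A sum held 1064764 UMIs and the sgVC sum 292462, and with each cell weighted equally 808 genes were higher (13.9%) and 444 lower (7.62%). The counts of the lists below are to be read against these shares of all genes.

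The contractile list as a whole did not stand apart: 0 of 24 genes were at least 2-fold higher or lower, the median was -0.060, and over the alternatives it ran from -0.16 to 0.044. Without some cells or with equal weights, 0 to 3 of the 24 were lower and 0 higher. In those settings 2.7 to 7.62% of all genes were lower and 8.62 to 13.9% higher. Its leading members sat at the low edge. Acta2 had 3291 CPM in sgCPT1A and 6551 CPM in sgVC, a log2 ratio of -0.99 (-1.07 to -0.91), and Tagln 1552 CPM in sgCPT1A and 2995 CPM in sgVC, log2 ratio -0.95 (-1.07 to -0.83). In single cells the lowest, median and highest levels of Acta2 were 0, 573 and 18125 CPM in sgCPT1A and 0, 4403 and 25539 CPM in sgVC. The ranges overlapped. Acta2 had a UMI in 45 of 62 sgCPT1A and 25 of 28 sgVC cells, and at 2000 UMIs Acta2 was seen in 64.3% of sgCPT1A and 88.0% of sgVC mural cells, in 4.78% of sgCPT1A and 16.2% of sgVC fibroblasts and in 13.8% of sgCPT1A and 8.46% of sgVC neutrophil-like cells. Fibroblasts had the same direction, with log2 ratios of -1.79 for Acta2 and -1.19 for Tagln. The log2 ratio of Acta2 ran from -1.44 to -0.57 over the alternatives and that of Tagln from -1.19 to -0.45. Vcl (log2 ratio -0.77, interval -1.11 to -0.42), Myl6 (log2 ratio -0.52, interval -0.65 to -0.40) and Tpm1 (log2 ratio -0.39, interval -0.55 to -0.23) were lower by less, Vcl being at -0.31 (-0.78 to 0.18) with the rule genes at 0.5% or more, while Myh11 (log2 ratio 0.15, interval -0.16 to 0.46), Cald1 (log2 ratio -0.013, interval -0.15 to 0.12) and Mylk (log2 ratio 0.33, interval 0.11 to 0.56) were not.

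**Figure D4:**
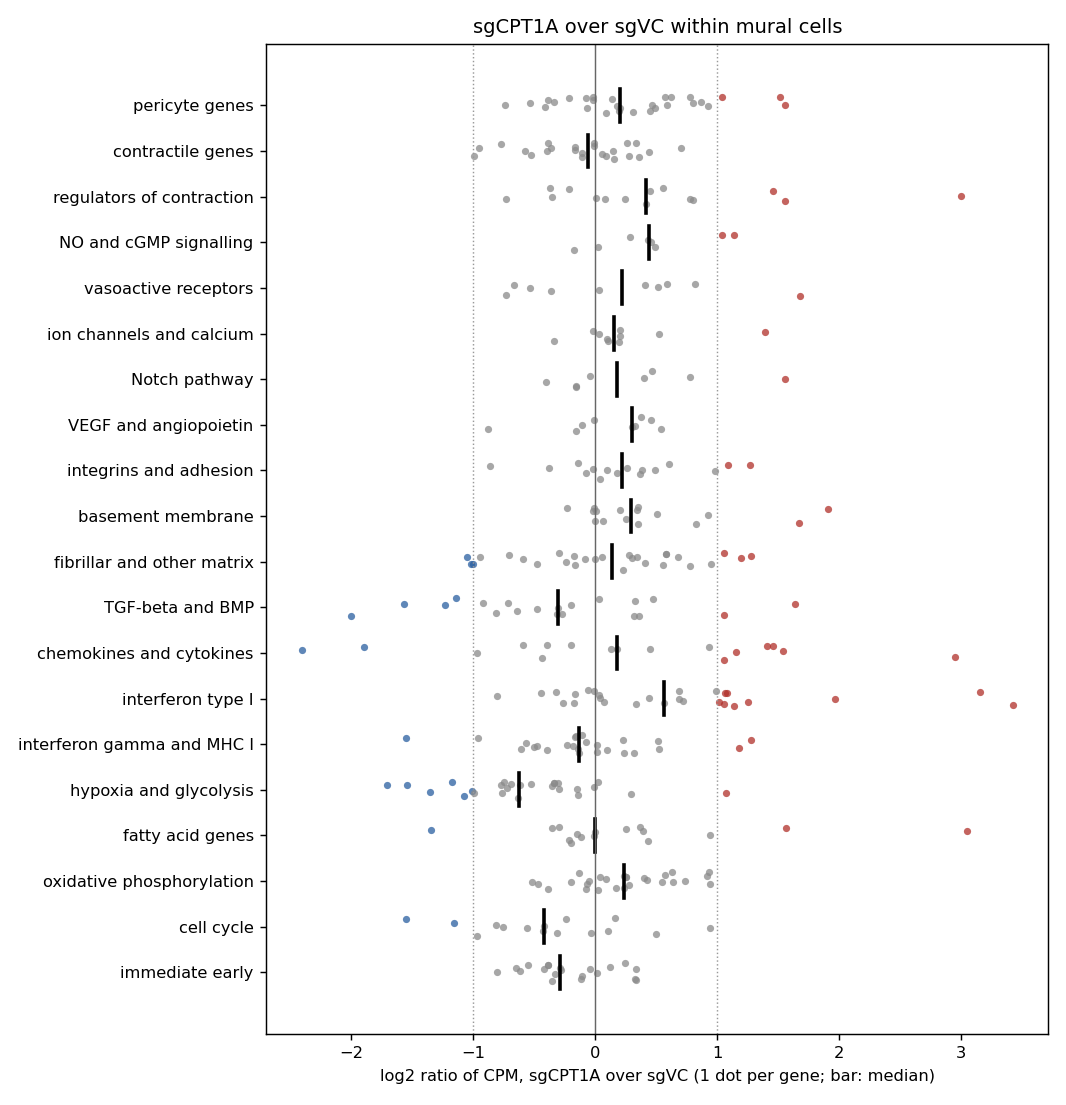
Log2 ratio of CPM, sgCPT1A over sgVC, within mural cells for each gene of 20 lists (1 dot a gene); bars are medians and dotted lines mark 2-fold. The contractile median lies at -0.060, the hypoxia and glycolysis median at -0.62 and the type I interferon median at 0.56, against 0.083 over all 5826 genes.

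Of the pericyte list, 3 of 29 genes were at least 2-fold higher in sgCPT1A and 0 lower, with a median of 0.20 and 0.25 for the same genes in fibroblasts. Over all genes 9.39% were higher and 2.52% lower, so the count of higher genes is near the share of all genes. The 3 were Gucy1a1 (309.9 CPM in sgCPT1A and 150.4 CPM in sgVC, log2 ratio 1.04, interval 0.59 to 1.53), Steap4 (322 CPM in sgCPT1A and 113 CPM in sgVC, log2 ratio 1.51, interval 1.0 to 2.08) and Heyl (60.1 CPM in sgCPT1A and 20.5 CPM in sgVC, log2 ratio 1.55, interval 0.35 to 3.05). In fibroblasts the log2 ratio of Gucy1a1 was 2.0 and that of Steap4 1.63. Gucy1a1 had a UMI in 51 of 62 sgCPT1A and 15 of 28 sgVC cells, and at 2000 UMIs in 53.6% of sgCPT1A and 24.0% of sgVC mural cells, 1.66% of sgCPT1A and 0% of sgVC fibroblasts and 0.0450% of sgCPT1A and 0% of sgVC neutrophil-like cells. Among identity genes, Rgs5 (log2 ratio 0.089, interval 0.0095 to 0.17), Kcnj8 (log2 ratio -0.021, interval -0.35 to 0.32), Abcc9 (log2 ratio 0.20, interval -0.077 to 0.48), Pdgfrb (log2 ratio 0.14, interval -0.070 to 0.35) and Gja4 (log2 ratio -0.016, interval -0.35 to 0.33) were close to equal. Other mural genes lay further from 0 within 2-fold, Notch3 at 0.47, Esam at -0.86 and Ramp1 at -0.66, each with 1 direction under every alternative run. Rgs5 changed sign with the rule genes at 0.5% or more, with equal weights and when thinned. Ednrb had 229 CPM in sgCPT1A and 71.8 CPM in sgVC (log2 ratio 1.67, interval 1.03 to 2.39), with 26.4% of its UMIs in 1 cell, and Cd36 121 CPM in sgCPT1A and 41.0 CPM in sgVC (log2 ratio 1.56, interval 0.71 to 2.55), seen in 24 of 62 sgCPT1A and 6 of 28 sgVC cells and at 2.54 with equal weights.

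The 10 highest ratios were those of Igfbp5, H19, Itih5, Hp, Tcf7l2, Resf1, Nfib, Acod1, Zfhx3 and 7SK. Igfbp5, a binding protein of insulin-like growth factors (chromosome 1, 72857932 to 72874884, - strand), had 439 CPM in sgCPT1A and 20.5 CPM in sgVC mural cells, a log2 ratio of 4.42 (3.29 to 5.87), against 0.50 in fibroblasts. It was found in 22 of 62 sgCPT1A and 4 of 28 sgVC cells, with medians of 0 in both, and its highest cell reached 9438 CPM in sgCPT1A and 682 CPM in sgVC. At 2000 UMIs it was seen in 25% of sgCPT1A and 4.00% of sgVC mural cells, in 8.94% of sgCPT1A and 4.34% of sgVC fibroblasts and in 0.0900% of sgCPT1A and 0% of sgVC neutrophil-like cells. The 4 sgVC cells held 6 UMIs of it in all, at most 3 in a cell, while 9 of 62 sgCPT1A cells held at least 10. H19, an imprinted noncoding RNA of growing tissue (chromosome 7, 142575529 to 142578143, - strand), had 121 UMIs in 13 sgCPT1A cells and 0 in sgVC, where 0 allows up to 10.3 CPM, and was at least 11.1-fold higher. Igfbp5 and H19 came together in 5 cells. Itih5, a hyaluronan-binding matrix protein, had 210.4 CPM in sgCPT1A and 23.9 CPM in sgVC (log2 ratio 3.14, interval 2.07 to 4.47), and 2.06 in fibroblasts. The transcription factor genes Tcf7l2 (log2 ratio 1.99, interval 1.07 to 3.08), Nfib (log2 ratio 1.86, interval 1.05 to 2.80) and Zfhx3 (log2 ratio 1.69, interval 0.91 to 2.60) were seen in 48, 47 and 43 of 62 sgCPT1A cells and in 8, 7 and 11 of 28 sgVC cells. Hp, haptoglobin, had 1038 CPM in sgCPT1A and 212 CPM in sgVC mural cells, and 383 CPM in neutrophil-like cells. Few cells held most of it. Of its 1105 sgCPT1A UMIs, single cells held 198, 190, 189, 165 and 154, and 1 sgVC cell held 44 of 62. In those sgCPT1A cells the neutrophil list made up 0.0027 to 0.22% of UMIs. Acod1, an enzyme of activated myeloid cells, had 105 CPM in sgCPT1A and 30.8 CPM in sgVC mural cells, and 3866 CPM in neutrophil-like cells. The log2 ratio of Hp was 2.29, but 4.71 with the rule genes at 0.5% or more and 1.5 with equal weights. That of Acod1 was 1.77, but 0.92 (-0.21 to 2.30) with the rule genes at 0.5% or more and 4.09 with equal weights. Nfib was at 3.05 with the rule genes at 0.5% or more, and Resf1 at 3.13 with equal weights. In thinned cells the bound of H19 was 1.16 on the log2 scale, from 15 sgCPT1A UMIs, and Igfbp5 was at 3.52. 7SK, a small nuclear RNA, was higher in fibroblasts as well (2.81).

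The 10 lowest were Wnt5a, Plau, Ccn2, Car4, Pgk1, Sdc4, Lgals3, Thbs1, Gbp4 and F3, of which Ccn2, Lgals3 and Gbp4 had the opposite sign under 1 alternative each. Wnt5a, a ligand of noncanonical Wnt signalling, had 9.39 CPM in sgCPT1A and 133 CPM in sgVC (log2 ratio -3.83, interval -5.00 to -2.80), in 8 of 62 sgCPT1A and 8 of 28 sgVC cells, and -0.78 in fibroblasts. Plau, the urokinase protease, had 34.7 CPM in sgCPT1A and 171 CPM in sgVC (log2 ratio -2.30, interval -2.95 to -1.66). Ccn2 and Thbs1, matrix proteins induced by TGF-beta and mechanical load, had 191 CPM in sgCPT1A and 762 CPM in sgVC (log2 ratio -2.0, interval -2.28 to -1.72) and 303 CPM in sgCPT1A and 896 CPM in sgVC (log2 ratio -1.56, interval -1.80 to -1.32), while fibroblasts were at -0.22 and 0.21. Few sgVC cells held much of both. Single cells held 97 and 43 of the 223 sgVC UMIs of Ccn2, and 79, 41 and 40 of the 262 of Thbs1. Without cells that held Ptprc, Ccn2 was at -1.29 (-1.63 to -0.95). F3, tissue factor, which starts clotting, had 69.5 CPM in sgCPT1A and 191 CPM in sgVC (log2 ratio -1.46, interval -1.98 to -0.93). Car4 and Gbp4 were lower in fibroblasts too, at -1.70 and -2.17. Of these 10 ratios, all but that of Car4 (-2.14) moved towards or past 0 when the rule genes had to reach 0.5%. Ccn2 was then at 0.34, the opposite sign, Lgals3 at 0.018 and Wnt5a at -1.91 (-3.89 to 0.14) from 6 sgCPT1A and 5 sgVC UMIs. Thbs1 was at -0.24 (-0.63 to 0.17), Pgk1 at -0.13 (-0.81 to 0.62), F3 at -0.54 (-1.31 to 0.29) and Gbp4 at -0.37 (-1.41 to 0.81), all intervals that hold 0. Plau was at -1.38 (-2.35 to -0.36) and Sdc4 at -1.08 (-1.85 to -0.25). With equal weights F3 was at -0.41. Ratios of at least 4-fold in genes such as Ccl4, Lcn2, Apoe and Mgp came with over 25% of their UMIs in 1 cell and are not described further.

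**Figure D5:**
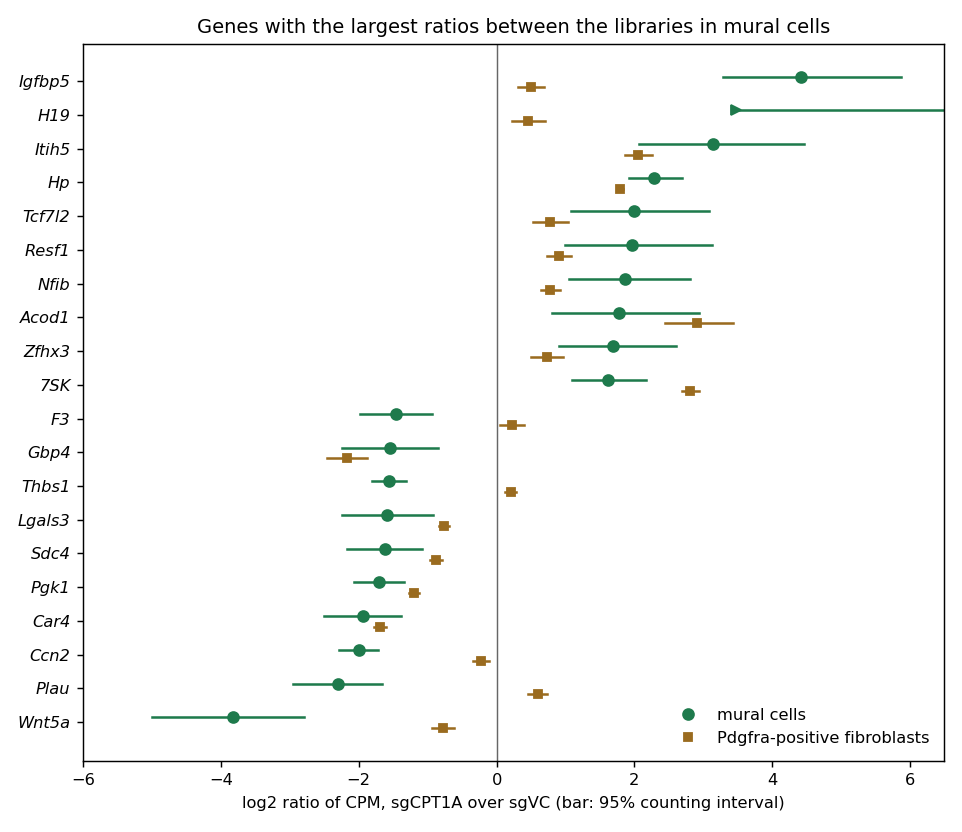
Log2 ratio of CPM, sgCPT1A over sgVC, of the 10 highest and 10 lowest genes in mural cells (green circles) and the same genes in fibroblasts (brown squares), with 95% counting intervals. The triangle of H19 is a lower bound, since sgVC had 0 UMIs. Igfbp5 lies at 4.42 in mural cells and 0.50 in fibroblasts, Plau at -2.30 and 0.60.

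Of the remaining lists, hypoxia and glycolysis had 6 of 26 genes at least 2-fold lower and 1 higher, with a median of -0.62 in mural cells and -0.58 in fibroblasts. Over all genes 2.52% were lower and 9.39% higher. Without cells that held Ptprc, 3 of 22 were lower and 1 higher (all genes 2.83% and 8.62%). The glycolytic enzyme genes Pgk1 (126 CPM in sgCPT1A and 410.3 CPM in sgVC, log2 ratio -1.71, interval -2.07 to -1.34), Gapdh (876 CPM in sgCPT1A and 1744 CPM in sgVC, log2 ratio -0.99, interval -1.15 to -0.83) and Pkm (309.9 CPM in sgCPT1A and 698 CPM in sgVC, log2 ratio -1.17, interval -1.43 to -0.91) and the glucose transporter Slc2a1 (28.2 CPM in sgCPT1A and 82.1 CPM in sgVC, log2 ratio -1.54, interval -2.37 to -0.70) were lower. The direction was kept for Pgk1, Gapdh and Pkm under every alternative run, but with the rule genes at 0.5% or more Pgk1 was at -0.13 and Pkm at -0.29 (-0.71 to 0.14), against -0.74 (-0.96 to -0.52) for Gapdh. Fabp5, a fatty acid chaperone, had 586 CPM in sgCPT1A and 1487 CPM in sgVC (log2 ratio -1.34, interval -1.52 to -1.16) and -1.92 in fibroblasts, and Fabp4 4449.8 CPM in sgCPT1A and 5676 CPM in sgVC (log2 ratio -0.35, interval -0.43 to -0.27). Oxidative phosphorylation genes had 0 of 27 past 2-fold.

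Type I interferon genes had 9 of 27 at least 2-fold higher and 0 lower, with a median of 0.56 against -0.046 in fibroblasts. Over all genes 9.39% were higher and 2.52% lower. The count moved with the choice of cells. Without cells that held Ptprc it was 4 higher and 3 lower of 25, with a median of -0.013 (all genes 8.62% higher and 2.83% lower). Without the deepest cell it was 5 higher and 3 lower (all genes 8.96% and 3.11%). Without cells with genes of another type it was 8 higher and 2 lower (all genes 9.08% and 2.7%). With equal weights it was 10 higher and 2 lower of 27, with a median of 0.52 (all genes 13.9% and 7.62%). The abundant members Ifitm3 (log2 ratio -0.17, interval -0.27 to -0.084) and Isg15 (log2 ratio 0.68, interval 0.37 to 1.01) were within 2-fold, Isg15 being at 1.27 with the rule genes at 0.5% or more and at 0.14 (-0.21 to 0.51) without cells that held Ptprc. Rsad2 had 26.5% of its UMIs in 1 cell. Interferon gamma and MHC class I genes had 2 higher and 1 lower of 25, and a median of -0.13. Cxcl9, an interferon gamma target that attracts T cells, had 296 CPM in sgCPT1A and 1101 CPM in sgVC (log2 ratio -1.90, interval -2.12 to -1.67), with 31.2% of its UMIs in 1 cell, and was at -0.17 (-0.54 to 0.21) with the rule genes at 0.5% or more. The chemokine and cytokine list had 6 higher and 2 lower of 17, and 4 higher and 1 lower of 16 without cells that held Ptprc, or 3 higher and 2 lower without cells with genes of another type. Cell cycle genes had 0 higher and 2 lower of 15, and 0 higher and 6 lower of 13 without the deepest cell or without cells that held Ptprc. Of the cGAS-STING list, a pathway named in the title of the series, 7 genes could be counted and 0 were past 2-fold, with Sting1 at 50.7 CPM in sgCPT1A and 30.8 CPM in sgVC (log2 ratio 0.72, interval -0.31 to 1.92) and Cgas at 8 UMIs in all mural cells. Without cells that held Ptprc, 1 was higher and 1 lower of 6, as was so without cells with genes of another type.

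The Notch list had 1 of 8 genes at least 2-fold higher, Heyl, and 0 lower. Over all genes 9.39% were higher and 2.52% lower, the shares to set beside this list and the next ones. Of the contractile regulators 3 of 15 were higher, namely Heyl, Mrtfb (28.2 CPM in sgCPT1A and 10.3 CPM in sgVC, log2 ratio 1.46, interval -0.23 to 3.81) and Myocd (log2 ratio 2.99, interval 0.40 to 8.35), the last from 1 sgVC UMI. Mrtfb and Myocd encode coactivators of serum response factor. The TGF-beta and BMP list had 2 of 20 higher and 4 lower, or 2 higher and 2 lower of 19 without cells that held Ptprc (all genes 8.62% and 2.83%). Its ligands parted, Tgfb1 at 63.9 CPM in sgCPT1A and 20.5 CPM in sgVC (log2 ratio 1.64, interval 0.44 to 3.13) and Tgfb3 at 58.2 CPM in sgCPT1A and 137 CPM in sgVC (log2 ratio -1.23, interval -1.83 to -0.62), and the BMP target Id2 had 40.4 CPM in sgCPT1A and 88.9 CPM in sgVC (log2 ratio -1.14, interval -1.87 to -0.38). None of 9 VEGF and angiopoietin genes passed 2-fold, with Angpt2 at a log2 ratio of -0.11 (-0.65 to 0.46). In the basement membrane list 2 of 16 were higher, Agrn (77.0 CPM in sgCPT1A and 20.5 CPM in sgVC, log2 ratio 1.91, interval 0.72 to 3.40) and Lama2 (54.5 CPM in sgCPT1A and 17.1 CPM in sgVC, log2 ratio 1.67, interval 0.37 to 3.35), and 0 lower.

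In the fibrillar matrix list 3 of 28 genes were higher and 3 lower, where 9.39% of all genes were higher and 2.52% lower. Timp3 had 1662 CPM in sgCPT1A and 728 CPM in sgVC (log2 ratio 1.19, interval 0.98 to 1.4) and Col3a1 3315 CPM in sgCPT1A and 1719.9 CPM in sgVC (log2 ratio 0.95, interval 0.81 to 1.08). With equal weights Timp3 was at 1.94, and with the rule genes at 0.5% or more Col3a1 was at 0.32. Col4a1 (log2 ratio 0.35, interval 0.22 to 0.49) and Sparc (log2 ratio 0.067, interval -0.011 to 0.15) were close to equal. Tnc and Col12a1, matrix genes of wounds and tendon, were lower, at a log2 ratio of -1.05 (-1.36 to -0.73) and -1.0 (-1.42 to -0.58), and fibroblasts had -0.52 and -0.61. The 10 fibroblast markers summed to 9615 CPM in sgCPT1A and 5799 CPM in sgVC mural cells, with 1 of them at 0 in sgCPT1A and 4 in sgVC, and their part was not tested.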

How the data were processed

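Single-cell RNA libraries of 10x Genomics chemistry were analysed from 2 samples, 1 a group. The deposited values are whole-number counts of UMIs per gene and barcode, written by Cell Ranger 7.1.0 per the file headers. Build GRCm38 and Seurat 4.1.0 stand beside Cell Ranger in the submitters' processing notes. Which gene annotation was used and how cells were called is not given in the sources used here, nor whether reads of the further sgCPT1A sample went into the sgCPT1A file.

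From these counts, barcodes were kept from 200 genes upward and up to 20% of UMIs from mitochondrial genes, and mural cells and fibroblasts were chosen by the limits in the text. Counts were summed per cell group and library and scaled to CPM. Levels carry exact Poisson intervals, shares Clopper-Pearson intervals and ratios exact conditional binomial intervals, all at 95% and for counting error only. A count of 0 was set to a floor of 3 counts in a ratio, which stands as a bound. Ratios used genes with at least 50 UMIs and 25 CPM (mural cells over fibroblasts) or at least 30 UMIs (between libraries). Marker lists and gene lists name genes from general knowledge; the members and lists were chosen with earlier results of these data known. Beyond list members, the genes named are the 15 highest and 10 lowest ratios against fibroblasts and the 10 highest and 10 lowest between libraries, with at least 100 CPM, 10 cells and no cell over 25% of the UMIs. Mitochondrial, ribosomal, predicted, haemoglobin and sex-linked genes were left out of that choice, as were genes of the rule. The genes followed along Acta2 plus Tagln and those set against fibroblasts in the closing section were singled out after their values were seen.

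Endothelial-like, tumour-like and neutrophil-like barcodes were set by marker genes. Gene coordinates are those of GENCODE M21 on GRCm38, matched by identifier for 52081 of 55357 genes. Promoter windows are RefSeq sequences (GRCm38.p6). Doublets were called with Scrublet in scanpy 1.11.5: it marked 291 sgVC barcodes (3.03%), 1 sgCPT1A barcode (0.0148%, where the caller has not worked) and 0 mural cells. Python 3.11.15, numpy 2.4.6, scipy 1.17.1, pandas 2.3.3 and matplotlib 3.10.9 were used. The ratios were tried on simulated Poisson counts with no spread between cells, which covers counting error only. Alternatives changed the limits of the rule, the filters, the weight of deep cells, the scaling, the gene minimum and the total behind the share.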

Additional observations from a re-analysis of the deposited data

Results flagged for a closer look

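Of 370 genes compared, 6 had a log2 ratio of sgCPT1A over sgVC in mural cells whose sign was opposite to that in fibroblasts, both being at least 1.5-fold with a counting interval that leaves out 0. The difference between the cell groups was not tested, since each has 1 library a group. Timp3, the matrix-bound protease inhibitor, stood at 1.19 in mural cells and -0.66 in fibroblasts. Plau, the urokinase gene, stood at -2.30 in mural cells and 0.60 in fibroblasts. Adra2a, an adrenergic receptor, stood at 0.82 in mural cells and -2.33 in fibroblasts. The monocyte attractant Ccl7 had 2.94 in mural cells and -1.02 in fibroblasts, and the eosinophil attractant Ccl11 had 0.94 in mural cells and -1.46 in fibroblasts. Ccl7 was sparse in mural cells, since it missed the minimum of 100 CPM or of 10 cells asked of the 10 highest ratios. The interferon-induced Rsad2, with 26.5% of its mural UMIs in 1 cell, had 3.15 in mural cells and -0.67 in fibroblasts.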

How the results depend on the processing

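No paired analysis was possible because each group had 1 library with a file, and for the same reason no replicate could be left out. The log2 ratio of the share of mural cells was 1.66, ran from 1.54 to 1.93 over the other limits, and was 0.77 without tumour-like barcodes in the total and 0.61 of mural cells plus fibroblasts. Against fibroblasts, the 871 genes that were at least 2-fold higher became 548 with median ratio scaling (837 lower) and 10504 with genes of 1 UMI or more counted (1631 lower). Within mural cells, the 547 genes higher in sgCPT1A became 1380 (4703 lower) with genes of 1 UMI or more, and 62 (55 lower of 840 genes) in cells thinned to 2000 UMIs, an alternative chosen after seeing the data. The contractile median ran from -0.16 to 0.044 and the pericyte median from 0.17 to 0.32. Of 44 genes, 39 kept their direction under every alternative run. The 44 include the highest and lowest ratios between libraries named above, which were picked by size from these same data. Several alternatives also left the cells nearly unchanged. Scrublet removed 0 mural cells, and limits of 2 and of 3 UMIs of the rule genes both left 59 sgCPT1A and 28 sgVC cells. The count of 39 is therefore a description and no test of robustness. With the rule genes at 0.5% or more, Ccn2 was at 0.34, Lgals3 at 0.018, Cxcl10 at 0.17 and Rgs5 at -0.10. Rgs5 was at -0.0080 with equal weights and -0.012 when thinned, where Gbp4 was at 0.16. At 0.5% or more, 48 of 62 sgCPT1A and 18 of 28 sgVC cells were left. They held 188 of 203 sgCPT1A and 33 of 223 sgVC UMIs of Ccn2. The cause of the shifts was not tested. The depth of the 28 sgVC cells, 292462 UMIs in all, sets the precision between libraries.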
